A study of Mus musculus with 6 samples.

Results

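Heat shock proteins and their partner chaperones were examined in glands carrying WT.EGFP+ or Adamts18-/-.EGFP+ mammary epithelium. The members were 10 genes taken by symbol from the table of read counts: Hspa1a, Hspa1b, Hspa8, Hsph1, Dnajb1, Hsp90aa1, Hspd1, Hspe1, Hspb1 and Bag3. The table held 34590 genes, all 10 members were in it, and all 10 passed the filter on low counts that left 17345 genes for testing. The members were listed with results of these data known, so their differences between genotypes are given below as a description and without a p-value.

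RNA was sequenced from 3 host mice, each with 1 gland per genotype, which gave 3 WT and 3 Adamts18-/- libraries. All hosts were WT mice whose inguinal fat pads had been cleared of their own epithelium, so the stroma, the vessels and the fat in every gland carried intact Adamts18. The grafted epithelium of both genotypes came from donors that expressed EGFP from a constitutive chicken β-actin promoter. The Adamts18-/- donors were homozygous for an allele without the exons that encode the catalytic site of this secreted metalloproteinase. The WT epithelium was always in the left gland and the Adamts18-/- epithelium in the right one, so genotype and body side cannot be told apart. The age of the hosts and the time after engraftment were not given for these glands in the sources used here. The labels describe GFP+ epithelial cells obtained by FACS, whereas the study's text speaks of profiled glands.

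Heat shock proteins are chaperones that bind unfolded or newly made proteins, keep them from aggregating and help them to fold. In resting cells the transcription factor Hsf1 is held inactive. Heat, damaged protein or mechanical and chemical stress frees it to form trimers that bind heat shock elements, arrays of the short unit nGAAn in alternating orientation, and to switch on the inducible members. Other members, such as Hspa8, are made at a high level in nearly every cell without stress.

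The total count was 53875123 to 71595924 per library. Adamts18 itself had 252, 608 and 383 counts with WT epithelium (mice 1 to 3, in this order here and below), against 144, 295 and 202 with Adamts18-/- epithelium. Its level was 6.78 ± 3.15 CPM (counts relative to the library total, scaled with TMM factors) in WT and 3.64 ± 1.10 CPM in Adamts18-/- glands (mean ± SD over 3 glands per genotype). The log2 fold change was -0.83 (SE 0.19; edgeR, unadjusted p = 0.00922, adjusted p = 0.987). It was lower in the Adamts18-/- gland of every mouse, but the unadjusted p by edgeR was 0.0767 without the mouse as a block, 0.0582 without mouse 2 and 0.260 (log2 fold change -0.38) when scaled to pan-epithelial genes. The remaining counts include any reads on exons that the allele keeps and any from host stroma. Summed markers of adipocytes, 8351 to 20522 CPM, exceeded those of pan-epithelial genes, 1321 to 2594 CPM, in every library, and markers of fibroblasts, endothelium, macrophages and skeletal muscle were also above 0 throughout, which goes against a pure sort of epithelial cells. In mouse 3 the markers of B and plasma cells summed to 126 CPM in the WT and 708 CPM in the Adamts18-/- gland, against 8.48 to 14.9 CPM in the other 4 libraries. In such bulk RNA, fewer cells of a type and less RNA per cell cannot be told apart.

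The promoters are shown because the members are grouped by their response to Hsf1, and because the inducible pair Hspa1a and Hspa1b is nearly the same there. RefSeq (build GRCm38.p6) gave windows of 250 bases before to 50 bases after a transcription start for 8 of the 10 members. Hspa8 and Hsp90aa1 had no entry. Each window was searched for 2 adjoining heat shock units, GAANNTTC or TTCNNGAA, each of which reads the same on both strands, and for 3 units, GAANNTTCNNGAA or TTCNNGAANNTTC, which are each other's reverse complement and contain the shorter motifs. Capitals mark the matches.
Hspa1a (chr17:34972231-34972371, minus strand, up to base -75 from the start): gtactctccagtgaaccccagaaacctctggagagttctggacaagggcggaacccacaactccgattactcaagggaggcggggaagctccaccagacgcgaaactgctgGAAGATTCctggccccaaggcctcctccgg
Hspa1b (chr17:34959313-34959453, minus strand, up to base -75): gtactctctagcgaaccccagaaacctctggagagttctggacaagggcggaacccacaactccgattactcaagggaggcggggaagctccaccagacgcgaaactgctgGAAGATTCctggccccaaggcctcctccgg
Hspb1 (chr5:135887784-135887844, plus strand, up to base -75): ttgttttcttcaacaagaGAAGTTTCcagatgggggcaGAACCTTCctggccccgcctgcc
Hspe1 (chr1:55088054-55088081, plus strand, bases -94 to -67): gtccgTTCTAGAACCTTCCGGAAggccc
Hsph1 (chr5:149636352-149636379, minus strand, bases -43 to -16): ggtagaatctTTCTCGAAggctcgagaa
The windows of Hspa1a and Hspa1b differed at 4 of 300 positions, 2 of which lie in the stretch printed here, and both held GAAGATTC from base -104. Hspb1 held a pair of separate matches, from bases -117 and -97. In the stretch of Hspe1 the units overlap into 1 run. This run also lies in a window of Hspd1 on the opposite strand, since these neighbouring genes are transcribed away from each other. The other window of Hspd1 held no match. In the GENCODE annotation the stretch of Hspe1 lies inside an exon of Hspd1, and most of the stretch of Hsph1 lies inside an exon of Hsph1. A match of 2 units was found in 7 of the 8 members, all but Dnajb1. Counted likewise over the windows of each gene, 17% of 27025 genes held one, or 15.1% of 32851 windows. A match of 3 units was found in 3 members, Hsph1, Hspd1 and Hspe1, and in 0.662% of genes or 0.603% of windows. The match of Bag3 lay after the start, from base 43, as did the 3-unit match of Hsph1, which the stretch printed above does not include. These matches describe letters in a window and were not tied to binding.

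The Adamts18-/- glands held less Hspa1a, Hspa1b and Hspb1 mRNA than the contralateral WT glands in all 3 mice, whereas the other 7 members had fitted log2 fold changes between -0.11 and 0.13. At a fold change under 0.8 with an unadjusted p under 0.05, the thresholds of the study, these 3 members were counted as lower and 0 of 10 as higher at the matching upper threshold, in an edgeR fit with the mouse as a block. Of all genes tested, 1.84% were counted as lower and 1.17% as higher. Nothing is read from the difference, since the members were chosen with these values known. By adjusted p under 0.05 edgeR called 0 of 17345 genes, 670 genes (3.86%) had an unadjusted p under 0.05, and DESeq2 called 71 genes, 0 of them members. Next to the threshold, Hspb1 lay just inside at a fold of 0.78 and Bag3 was the first outside at 0.93. Without the mouse as a block, 0 members were counted.

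**Figure D1:**
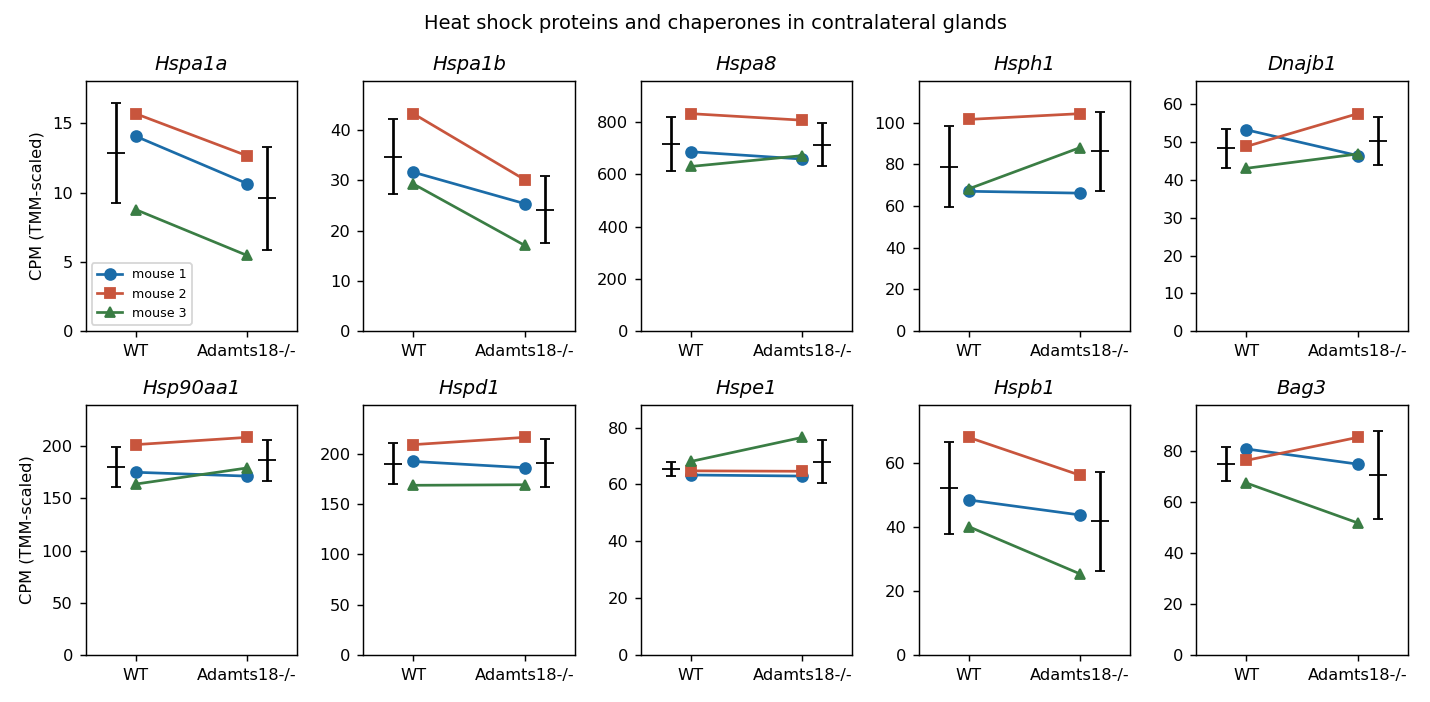
Level of each of the 10 members in CPM (vertical axis from 0, a scale of its own per panel) in the WT and the Adamts18-/- gland of each mouse; a line joins the glands of 1 mouse, and the black bars are group means with SD (n = 3). The lines of Hspa1a, Hspa1b and Hspb1 fall in all 3 mice, and in no panel do the groups lie wholly apart.

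Hspa1a and Hspa1b encode the inducible cytosolic HSP70, the chaperone that rises most steeply on heat shock in most cells. Hspa1a stood at 14.1, 15.7 and 8.77 CPM in WT and at 10.7, 12.7 and 5.47 CPM in the Adamts18-/- glands. Both glands of mouse 3 were the lowest of their genotype, and the groups overlapped, since the Adamts18-/- glands of mice 1 and 2 exceeded the WT gland of mouse 3. The fitted log2 fold change was -0.46 (SE 0.12, 95% interval -0.79 to -0.14), and the differences within the mice were -0.40, -0.31 and -0.68.

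Hspa1b, which encodes nearly the same protein, had 31.6, 43.3 and 29.3 CPM in the WT and 25.4, 30.1 and 17.1 CPM in the Adamts18-/- glands. The Adamts18-/- gland of mouse 2 was above the WT gland of mouse 3, so these groups overlapped as well. Its log2 fold change of -0.54 (SE 0.11, 95% interval -0.83 to -0.24) was the largest in size among the members, with -0.32, -0.52 and -0.78 in mice 1, 2 and 3.

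Counts on this pair cannot be assigned cleanly to either gene. Of all stretches of 85 bases, the read length, in the annotated transcripts of Hspa1a, 50.4% also occur in transcripts of Hspa1b, and 53.5% of those of Hspa1b occur in Hspa1a. Hspa1a took 23.1% to 30.8% of the counts of the pair in WT glands and 24.3% to 29.6% in Adamts18-/- glands. In mouse 3 the share was 23.1% in the WT gland (exact binomial 95% interval 21.3% to 24.9%, counting error only) and 24.3% in the Adamts18-/- gland. Summed over the pair, the level was 45.7, 59.0 and 38.1 CPM in WT and 36.0, 42.8 and 22.5 CPM in Adamts18-/- glands, and the log2 fold change of the sum was -0.52 (SE 0.10). The sum was lower in the Adamts18-/- gland of every mouse.

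Hspb1 encodes a small heat shock protein that holds unfolded protein without using ATP and is abundant in contractile cells. It stood at 48.4, 67.9 and 40.1 CPM in the WT and at 43.7, 56.1 and 25.3 CPM in the Adamts18-/- glands of mice 1, 2 and 3. The order of the mice was the same as for Hspa1b, with mouse 2 highest and mouse 3 lowest in each genotype. The differences within the mice were unequal, -0.15, -0.28 and -0.66, and the fitted log2 fold change was -0.36 (SE 0.12, 95% interval -0.68 to -0.042). Without mouse 3 it was -0.20. The transcripts of Hspb1 share 45.4% of their 85-base stretches with Hsp25-ps1, to which 0 to 2 counts were assigned per library.

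**Figure D2:**
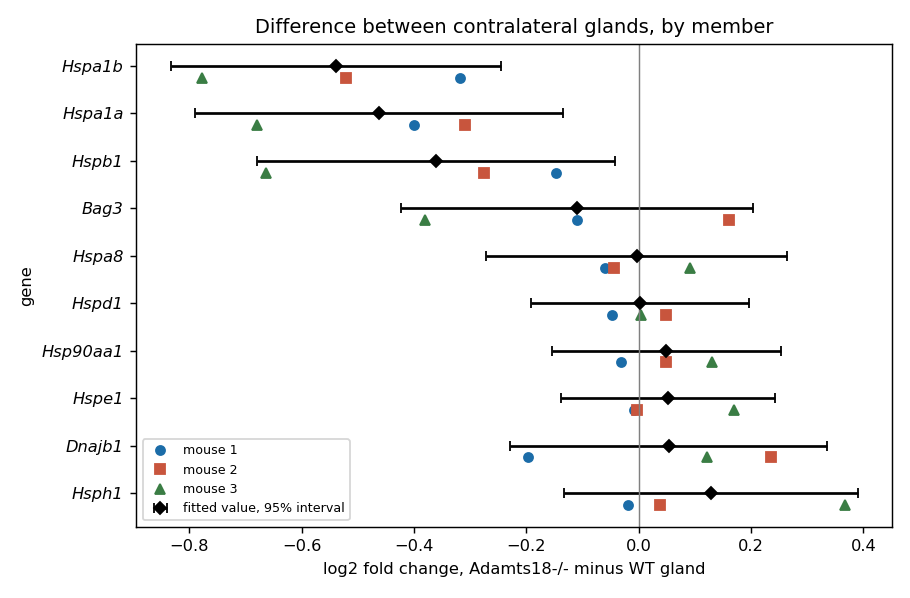
Log2 fold change of each member, Adamts18-/- minus WT (horizontal axis), with the fitted value and its 95% interval as the large marker and bar, and the difference within each of the 3 mice as small markers. The intervals are not adjusted for the number of genes, and the members were chosen with these values known. Those of Hspa1a, Hspa1b and Hspb1 lie below 0 and those of the other 7 members include 0.

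Hspa8 encodes the constitutive cytosolic HSP70, which folds new proteins and takes clathrin coats apart. It was the most abundant member, with 686, 832 and 630 CPM in WT and 658, 807 and 672 CPM in Adamts18-/- glands. The genotypes interleaved within each mouse, by -0.06, -0.04 and 0.09 on the log2 scale. The log2 fold change was -0.0039 (SE 0.10) with a 95% interval of -0.27 to 0.26. Hspa8 shares 28.6% of its 85-base stretches with Gm15459, which had 3239 to 5677 counts per library against 34424 to 50997 for Hspa8.

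Set against Hspa8 in the same library, which removes the scaling between libraries, the inducible pair amounted to 6.66%, 7.09% and 6.04% of the Hspa8 count in the WT glands and to 5.47%, 5.31% and 3.36% in the Adamts18-/- glands. On this ratio the groups did not overlap, with means of 6.60% ± 0.526 in WT and 4.71% ± 1.18 in Adamts18-/- glands (SD, n = 3). By CPM both genes of the pair overlapped, and 2.63% of all genes tested had every Adamts18-/- library below every WT library. No such share was counted for ratios to Hspa8. Against the pan-epithelial and myoepithelial sums given below, the ratios of the pair overlapped too. Hspb1 amounted to 7.05%, 8.16% and 6.36% of the Hspa8 count in WT and to 6.63%, 6.95% and 3.77% in Adamts18-/- glands. Here the groups overlapped, and the gland of mouse 3 with Adamts18-/- epithelium was far below the other 5. The ratio shows unequal change of these genes and not which of them changed.

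**Figure D3:**
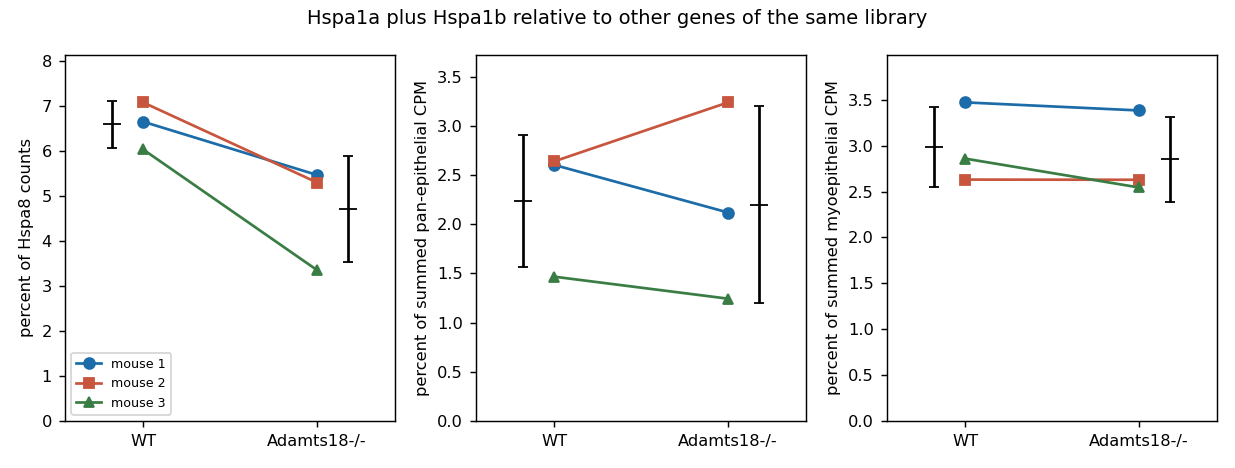
Hspa1a plus Hspa1b in each gland as a percent of Hspa8 counts (left), of the summed CPM of pan-epithelial genes (middle) and of the summed CPM of myoepithelial genes (right), on vertical axes from 0; lines join the glands of 1 mouse, and the black bars are group means with SD. Against Hspa8 the ratio of the pair is lower in each Adamts18-/- gland than in any WT gland, while against the pan-epithelial genes it is higher in the Adamts18-/- gland of mouse 2.

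The partners that work with HSP70 showed no shared direction. Dnajb1, the J-domain protein that hands substrates to HSP70 and starts its ATPase cycle, had 53.3, 48.9 and 43.1 CPM in WT and 46.5, 57.6 and 46.9 CPM in Adamts18-/- glands. Mouse 1 went down by 0.20 and mouse 2 up by 0.24 on the log2 scale, so the fitted value of 0.05 (SE 0.11) averages opposite differences. Hsph1, the HSP110 that exchanges the nucleotide of HSP70, had 67.1, 102 and 68.2 CPM in WT and 66.2, 104 and 88.0 CPM in Adamts18-/- glands. Only mouse 3 departed from near 0, by 0.37, and the log2 fold change was 0.13 (SE 0.10, 95% interval -0.13 to 0.39). Bag3, a cochaperone that links HSP70 and small heat shock proteins to autophagy, had 80.7, 76.2 and 67.4 CPM in WT and 74.7, 85.2 and 51.7 CPM in Adamts18-/- glands. It was lower in mice 1 and 3, by -0.11 and -0.38, and higher in mouse 2, by 0.16, with a fitted value of -0.11 (SE 0.12).

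Hsp90aa1 encodes the stress-inducible HSP90, which matures kinases and steroid hormone receptors. Its level was 175, 202 and 164 CPM in WT and 171, 209 and 179 CPM in Adamts18-/- glands, a log2 fold change of 0.05 (SE 0.077, 95% interval -0.15 to 0.25). Relative to its constitutive paralog Hsp90ab1 it had 12.8% to 14.7% of the counts in WT and 13.4% to 15.7% in Adamts18-/- glands, so these groups overlapped. Transcripts of Hsp90aa1 share 34.3% of their 85-base stretches with Gm12346, which had 6 to 15 counts.

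Hspd1 and Hspe1 encode HSP60 and HSP10, the chamber and the lid of the mitochondrial chaperonin. Hspd1 had 192, 209 and 169 CPM in WT and 186, 216 and 169 CPM in Adamts18-/- glands, and its log2 fold change was 0.0021 (SE 0.074, 95% interval -0.19 to 0.20). Hspe1 had 63.3, 64.8 and 68.1 CPM in WT and 62.9, 64.6 and 76.6 CPM in Adamts18-/- glands, with a log2 fold change of 0.05 (SE 0.073). For both genes the glands of mice 1 and 2 differed by 0.05 or less on the log2 scale, in either direction. The Hspe1 count was 29.9% to 33.8% of the Hspd1 count in mice 1 and 2. It was 40.4% and 45.3% in the WT and Adamts18-/- glands of mouse 3, although the printed Hspe1 stretch lies in windows of both genes. Transcripts of Hspd1 share 25.8% of their 85-base stretches with Hspd1-ps3, and those of Hspe1 share 11% with AC117239.2. Neither of these symbols was in the table of read counts.

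Per kilobase of exon, Hspa8 had the highest level of the members in WT glands at 166 ± 24.2 CPM per kb (mean ± SD, n = 3), followed by Hspd1 at 71.9 ± 7.68. Hspb1 at 50.5 ± 13.9, Hsp90aa1 at 45.8 ± 4.94 and Hspe1 at 44.4 ± 1.66 CPM per kb came next and did not differ beyond their spread. Bag3 followed at 29.2 ± 2.65 and Dnajb1 at 15.1 ± 1.6 CPM per kb. Hspa1b at 12.4 ± 2.67 and Hsph1 at 10.9 ± 2.69 CPM per kb overlapped in their spread over the mice, and Hspa1a was the lowest at 4.33 ± 1.22. The members were not compared within each mouse on this scale. Among the tested genes with a known length, Hspa1a was at the percentile 44, Hspa1b at 70.7, Hsph1 at 72.8 and Hspa8 at 98.8. The levels of Hspa1a and Hspa1b depend on how shared reads were assigned or dropped.

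Differences between the mice accounted for more of the spread of the members than the genotype did. The mouse has more levels than the genotype, so a larger share falls to it even without any effect. The study's text gives a separate donor and experiment for each pair of glands, so host, donor and experiment cannot be told apart here. Across the 6 libraries the mouse took 49.4% of the variance of log2 CPM for Hspa1b and up to 97.9% for Hspd1, with a median of 76.9% over the members, beside 67.3% over all genes tested. The genotype took 45.1% for Hspa1b, 21.0% for Hspa1a and 16.6% for Hspb1, and at most 7.22% for the other members. Over all genes its median share was 5.98%. For differences between the mice, 0.628% of genes tested had an adjusted p under 0.05 by edgeR, and 0 of 10 members were among them.

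Mouse 3 held less of most members than the mean of mice 1 and 2, by -0.92 on the log2 scale for Hspa1a, -0.74 for Hspb1, -0.52 for Hspa1b and -0.42 for Bag3. Hspe1 alone was higher there, by 0.18. All 10 members were lower in the Adamts18-/- gland of mouse 1, against 5 in mouse 2 and 4 in mouse 3, so the count of members below their WT partner was highest in the mouse in which Hspa1b and Hspb1 differed least. Over all genes the median difference was -0.0098, -0.0052 and -0.0052 in the 3 mice. Members lower in all 3 mice numbered 3 of 10, beside 12.7% of all genes tested.

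Some members varied together over the 6 libraries, which share 3 hosts and are few. The sets named here were picked from these same correlations, so their values are a description. Pearson's r of log2 CPM was 0.76 to 0.96 among Hspa1a, Hspa1b, Hspb1 and Bag3, and 0.86 to 0.97 among Hspa8, Hsph1 and Hsp90aa1. Between these sets it was 0.054 to 0.72. Hspd1 went with both sets, with r of 0.67 to 0.85 to the first and 0.60 to 0.90 to the second. Dnajb1 had r of 0.26 to 0.62 to the first and 0.48 to 0.72 to the second. Hspe1 ran against the first set, with r of -0.94 to -0.73. Reads shared by Hspa1a and Hspa1b enter the value of that pair. The 5 other genes whose profile was most like the mean of the 10 members were Arap3 (r = 0.997), Ano6 (0.995), Robo4 (0.994), Ctgf (0.994) and Nhs (0.992). Ctgf, which encodes a matrix-associated secreted protein, was 151, 266 and 107 CPM in WT and 118, 202 and 69.0 CPM in Adamts18-/- glands (log2 fold change -0.46, SE 0.088, adjusted p = 0.987 by edgeR). Arap3, Ano6, Robo4 and Nhs had log2 fold changes of -0.16, -0.06, -0.22 and -0.32. These 5 genes were picked for the highest r over all genes tested, so no link to the members is read from them.

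The rest of the chaperone system was then counted in 10 lists that the choice of members did not use. Of 106 genes listed, 105 were tested, all but Hspb9. At the same thresholds 0 were lower and 3 were higher in Adamts18-/- glands, 1 each among 12 J-domain cochaperones, 7 small heat shock proteins and 11 other genes of the heat shock response, which is 2.86% of those tested beside 1.17% of all genes. Without mouse 3 the count of higher genes was 8, and without mouse 1 or mouse 2 it was 1. Without mouse 2, 3 genes were lower. The median log2 fold change of the 105 genes was 0.02, and 96 of them lay within 0.2 of 0. Over all genes the median was 0.00065.

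Rgs2, a brake on G-protein signalling that stress induces, rose in all 3 mice, from 34.6, 29.5 and 28.6 CPM in WT to 43.6, 39.2 and 39.6 CPM in Adamts18-/- glands (log2 fold change 0.40, SE 0.072; edgeR, unadjusted p = 0.00311, adjusted p = 0.987). Its groups did not overlap, as for 2.31% of all genes with Adamts18-/- above WT. Dnajb5, a J-domain relative of Dnajb1, rose from 19.6, 19.8 and 18.6 to 24.0, 29.6 and 20.3 CPM (log2 fold change 0.33, SE 0.12; edgeR, unadjusted p = 0.0370, adjusted p = 0.987). Its groups did not overlap either, but the unadjusted p by edgeR was 0.0625 without the block, 0.115 without mouse 1 and 0.158 without mouse 2, and library size scaling gave a log2 fold change of 0.31, under the threshold. Hspb3, a muscle small heat shock protein, had 2, 7 and 11 counts in WT and 37, 35 and 16 counts in Adamts18-/- glands (log2 fold change 2.19, SE 0.76; edgeR, unadjusted p = 0.0373, adjusted p = 0.987). For Hspb3 it was 0.0909 without mouse 1 and 0.136 without mouse 2 (edgeR, unadjusted p). None of these 3 genes passed the correction over all genes.

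Hsf1, the master factor of the response, had 41.2, 46.9 and 39.8 CPM in WT and 37.3, 46.5 and 42.5 CPM in Adamts18-/- glands, a log2 fold change of -0.02 (SE 0.081; edgeR, adjusted p = 0.991). Hsf2, a related factor active in development, had a log2 fold change of 0.03 (SE 0.11). Among the other HSP70 and HSP110 genes the median was -0.01. Hspa1l, which lies beside the inducible pair and is a testis form, had 35, 52 and 43 counts in WT and 90, 151 and 35 counts in Adamts18-/- glands, higher in mice 1 and 2 and lower in mouse 3 (log2 fold change 1.02, SE 0.50), and did not pass the test.

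Chaperones of constitutive folding lay close to 0. The 8 subunits of TRiC, the cytosolic chaperonin that folds actin and tubulin, had log2 fold changes of 0.03 to 0.10, and 0 of 8 passed the thresholds. Of 13 genes for HSP90 beta and HSP90 cochaperones 0 passed them, with a median of 0.01. Unc45a, a cochaperone for myosin, was 64.1, 74.0 and 64.9 CPM in WT and 54.8, 67.2 and 57.9 CPM in Adamts18-/- glands, with a log2 fold change of -0.18 (SE 0.065) that did not reach the fold threshold. The 14 mitochondrial genes had a median of -0.0028 and the 20 genes of the endoplasmic reticulum 0.05, with 0 past the thresholds in either list. The 7 BAG and nucleotide exchange factors had a median of -0.06, and 0 passed the thresholds. In the remaining lists, differences that did not pass included those of Hmox1, the stress-induced heme oxygenase, at -0.49 (SE 0.27), Hsf2bp, which binds Hsf2, at -0.29 (SE 0.25), and the J-domain genes Dnajc2 at 0.24 (SE 0.13) and Dnajb2 at -0.19 (SE 0.079). The HSP70 relatives Hspa12b, which is made in endothelium, and Hspa2, which is abundant in testis, had values of -0.19 (SE 0.12) and -0.17 (SE 0.097).

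Of the 7 small heat shock proteins tested beside Hspb1, Hspb3 alone passed the thresholds. Their summed level was 216, 192 and 177 CPM in WT and 263, 289 and 127 CPM in Adamts18-/- glands. Hspb6, which is rich in muscle, had 15.1, 18.1 and 15.6 CPM in WT and 38.6, 47.1 and 12.6 CPM in Adamts18-/- glands (log2 fold change 0.83, SE 0.38; edgeR, adjusted p = 0.987). Hspb7, also a muscle form, had 3.4, 4.0 and 2.38 CPM in WT and 5.76, 7.14 and 1.98 CPM in Adamts18-/- glands. Neither passed the thresholds, and in both the glands of mice 1 and 2 were higher and the gland of mouse 3 lower with Adamts18-/- epithelium.

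Markers of skeletal muscle went the same way as Hspb6 and Hspb7 in each mouse. The summed level of the 12 markers was 391, 1070 and 3469 CPM in the WT and 13399, 13480 and 2324 CPM in the Adamts18-/- glands of mice 1, 2 and 3, higher in mice 1 and 2 and lower in mouse 3, as for Hspb6, Hspb7 and Hspa1l. All 12 had positive fitted values, with a median of 2.99, 0 passed the thresholds, and 0 of 12 were at 0 throughout. Hspb3 departed from the muscle sum in mouse 3, where it was higher in the Adamts18-/- gland by 0.36 on the log2 scale. The part of muscle RNA in the small heat shock protein result was not tested.

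**Figure D4:**
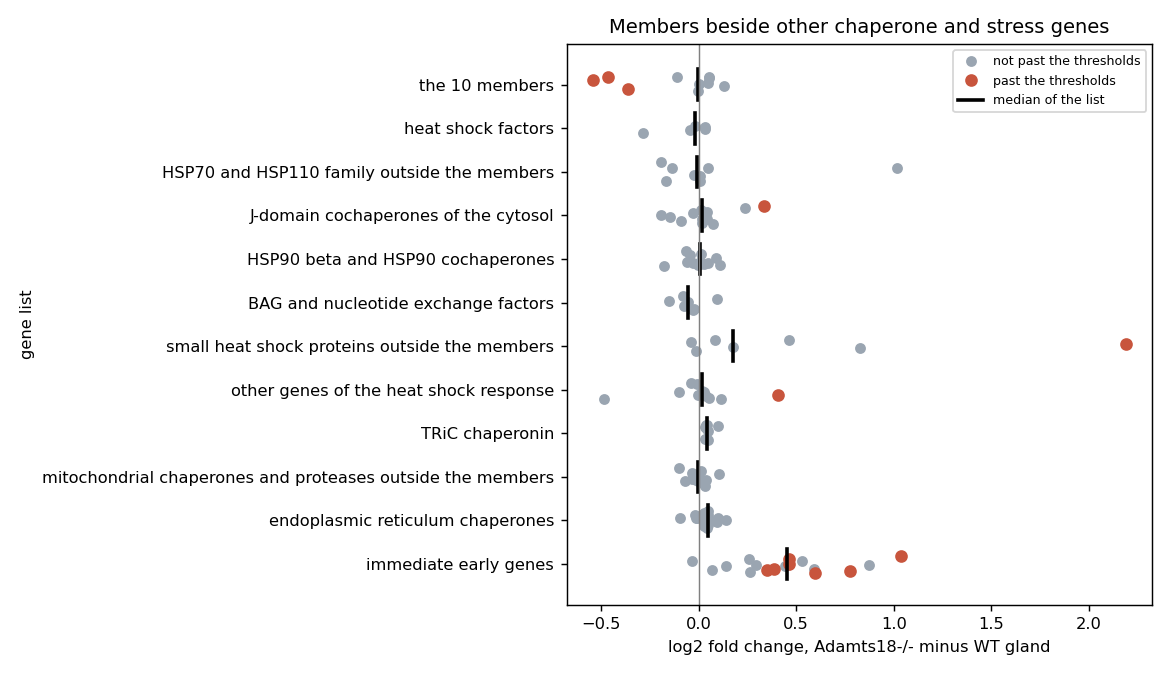
Log2 fold change, Adamts18-/- minus WT (horizontal axis), of each gene among the 10 members, in the 10 other chaperone and heat shock lists and among the immediate early genes (rows); each point is 1 gene, orange where it passed the thresholds, and the black tick is the median of the list. Most chaperones lie within 0.2 of 0, while Hspa1a, Hspa1b and Hspb1 lie at -0.36 or lower and the small heat shock proteins reach 2.19.

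Immediate early genes encode transcription factors and feedback regulators that cells switch on within minutes of stimulation or tissue handling. By their median they ran opposite to Hspa1a and Hspa1b in mice 1 and 2, but not in mouse 3. Of 18 tested, 7 rose past the thresholds in Adamts18-/- glands and 0 fell, with a median log2 fold change of 0.45. Of all genes tested, 1.17% were counted as higher. The median difference within the mice was 0.56, 0.75 and -0.09. By sign alone, 7 of the 18 genes were higher in all 3 mice, beside 10.8% of all genes tested. Fos, a subunit of AP-1, went from 270, 92.2 and 41.2 CPM in WT to 669, 261 and 49.8 CPM (log2 fold change 1.04, SE 0.27; edgeR, unadjusted p = 0.0131, adjusted p = 0.987). Egr1, a zinc finger factor, went from 270, 234 and 59.0 to 464, 396 and 70.5 CPM (log2 fold change 0.60, SE 0.14; edgeR, unadjusted p = 0.00820, adjusted p = 0.987). Junb, Btg2, Zfp36, Ier2 and Egr2 were the others past the thresholds, at 0.35 to 0.77. The summed level of the list was 2276, 1553 and 934 CPM in WT and 3657, 2763 and 939 CPM in Adamts18-/- glands, so mouse 3 held little difference, while Hspa1b and Hspb1 differed most there. Without mouse 3 the count was 14, without mouse 1 it was 2, without mouse 2 it was 4, and without the block it was 1. The call of Fos was lost without mouse 1 or mouse 2 and that of Egr1 without mouse 1, and both were lost without the block. None passed the correction over all genes.

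Markers of myoepithelial and hormone-sensing luminal cells and the pan-epithelial genes were lower in all 3 mice when summed, as were Hspa1a, Hspa1b and Hspb1. Of 10 myoepithelial markers 9 fell past the thresholds and all 10 had negative fitted values, with a median of -0.49. Their summed level was 1316, 2241 and 1331 CPM in WT and 1064 (mouse 1), 1628 and 886 CPM in Adamts18-/- glands. Of 24 pan-epithelial genes 7 fell and all 24 had negative fitted values, with a median of -0.38 and sums of 1755, 2234 and 2594 CPM in WT and 1700, 1321 and 1813 CPM in Adamts18-/- glands, a difference near 0 in mouse 1 and the largest in mouse 2. Of the hormone-sensing luminal markers 5 of 9 fell, with sums of 721, 644 and 875 CPM in WT and 593, 454 and 549 CPM in Adamts18-/- glands. Of 9 secretory luminal markers tested 1 fell and all 9 had negative fitted values, with a median of -0.50. Their sum was 377, 868 and 539 CPM in WT and 422, 407 and 342 CPM in Adamts18-/- glands. It was higher in the Adamts18-/- gland of mouse 1 and lower in those of mice 2 and 3. Over these 4 lists 22 markers were counted as lower, 7 without the block, 41 without mouse 1, 12 without mouse 2 and 16 without mouse 3. No marker of these lists was at 0 throughout.

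Relative to the summed myoepithelial markers, Hspa1a plus Hspa1b amounted to 3.47%, 2.63% and 2.86% in WT and to 3.38%, 2.63% and 2.54% in Adamts18-/- glands. The differences within the mice were then -0.037, -0.0010 and -0.17 on the log2 scale, and those of Hspb1 were 0.16, 0.19 and -0.076. Against the pan-epithelial sum the pair gave 2.60%, 2.64% and 1.47% in WT and 2.12%, 3.24% and 1.24% in Adamts18-/- glands, higher in mouse 2 and lower in the others. Scaling every library to the pan-epithelial genes moved the median of all genes to 0.44. On that scale the log2 fold changes were -0.02 (SE 0.32) for Hspa1a, -0.10 (SE 0.30) for Hspa1b and 0.08 (SE 0.31) for Hspb1, all below that median, and 0 members were counted as lower. The part of the epithelial content in the differences of the 3 genes was not tested.

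Endothelial markers had 9 of 9 negative fitted values with a median of -0.16, and 0 passed the thresholds. Against their sum the pair amounted to 3.97%, 4.80% and 4.45% in WT and to 3.65%, 3.45% and 3.13% in Adamts18-/- glands, without overlap of the groups. By CPM, where both genes of the pair overlapped, 2.63% of all genes tested had every Adamts18-/- library below every WT library. No such share was counted for ratios to the endothelial sum. Hspb1 amounted to 4.20%, 5.53% and 4.68% in WT and to 4.42%, 4.51% and 3.51% in Adamts18-/- glands, which overlapped. In the lists for fibroblasts, adipocytes, macrophages, B and plasma cells, T cells and erythroid cells 0 genes passed the thresholds, and their median log2 fold changes were -0.07, -0.14, -0.02, 0.71, 0.27 and 0.06.

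**Figure D5:**
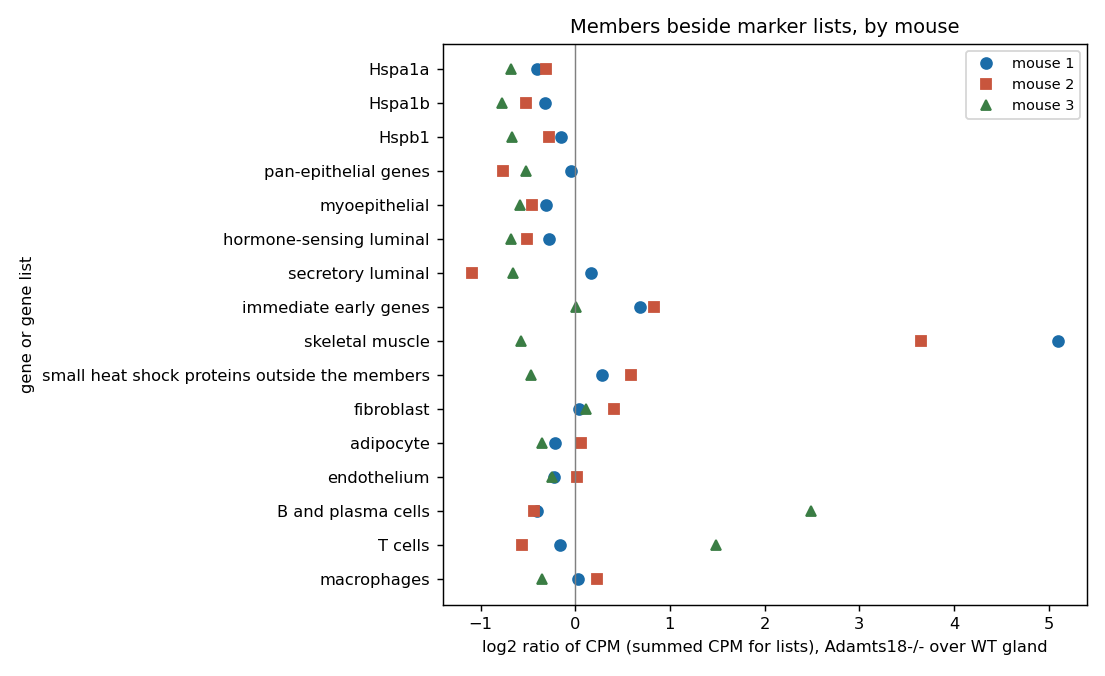
Log2 difference, Adamts18-/- minus WT, within each of the 3 mice (horizontal axis) for Hspa1a, Hspa1b and Hspb1 and for the summed CPM of each gene list (rows). The myoepithelial markers lie at -0.31, -0.46 and -0.59 and the hormone-sensing luminal markers at -0.28, -0.50 and -0.67. Hspb1 lies at -0.15, -0.28 and -0.66, while skeletal muscle lies at 5.10, 3.66 and -0.58.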

How the data were processed

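The deposited values are raw counts of reads that the authors assigned to each gene symbol, 1 column per gland, in 1 table of 6 libraries, and 0 columns belonged to other samples. Per the submitters' processing notes, the tools were bcl2fastq 2.18, TopHat2 2.0.11, featureCounts 1.6.2 and edgeR, with build mm9. Gene coordinates are therefore not given, and promoter and transcript sequences come from GRCm38. Reads that fit several copies of a gene may have been dropped or split, which bears on Hspa1a and Hspa1b. The settings were not given in the sources used here.

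The quasi-likelihood test of edgeR 4.0.16 (R 4.3.3; two-sided) was applied after filterByExpr and TMM scaling, with the mouse as a block and Benjamini-Hochberg adjustment over 17345 genes. Log2 CPM used a prior count of 2. The groups and mouse numbers came from the labels, and the study's text gives the glands of a mouse as contralateral. After group means were removed, deviations correlated across genes at 0.512, 0.505 and 0.639 within mice 1, 2 and 3. With the block and n = 3 mice, p-values rest only on how the differences within these mice vary, with variance estimates moderated across genes.

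The members and the gene lists were chosen with earlier results of these data known. The genes named were every member, Adamts18, Hsf1, Hsf2, the genes of each chaperone, heat shock or immediate early list that passed the thresholds with up to 3 more of smallest p, and the 5 genes most like the member mean. Alternatives were DESeq2 1.42.0, limma-voom (limma 3.58.1), RLE, library size and pan-epithelial scaling, other filters, no block, the summed Hspa1 pair and each mouse left out.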

Additional observations from a re-analysis of the deposited data

How the results depend on the processing

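RLE scaling, library size scaling and at least 10 counts in every library kept all 3 lower members and moved no count over 1.5 times; so did DESeq2, limma-voom and no filter on low counts, except for the genes higher, 340, 345 and 352 against 203, and for calls by adjusted p, 71 by DESeq2 against 0. The mouse block mattered: without the pairing, 0 members were lower (main 3), with 125 genes lower (main 319), 1 immediate early gene higher (main 7) and 7 epithelial or mammary lineage markers lower (main 22). Scaling to pan-epithelial genes gave 0 members lower, a member median of 0.44 (main -0.00093), 0.078 for Hspb1 (main -0.36), 30 genes lower, 2030 higher, 359 genes by adjusted p, 7 chaperone genes higher (main 3), 13 immediate early genes higher, and 1 lineage marker each lower and higher. With 1 mouse left out, genes lower ranged from 214 to 481, genes higher from 182 to 581, members lower stayed at 2 (Hspa1a was lost without mouse 1, Hspb1 without mouse 2 or mouse 3), the member median ranged from -0.030 to 0.024, chaperone genes lower from 0 to 3 (3 without mouse 2) and higher from 1 to 8 (8 without mouse 3), immediate early genes higher from 2 to 14, lineage markers lower from 12 to 41 and higher from 0 to 1, and genes that differed between mice from 12 to 48 (main 109). Fewer libraries are tested there; otherwise the cause was not tested. Without mouse 3, 268 genes and 0 members passed by adjusted p. Members other than Hspa1a, Hspa1b and Hspb1 had unadjusted 95% intervals that all included 0 and reached at most to -0.42 and 0.39.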
